A study of Caenorhabditis elegans with 4 samples.

Results

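The X chromosome carried 483 of the 4940 peaks of HTZ-1 in the longer of the 2 peak lists deposited for L3 larvae of Caenorhabditis elegans, and 558 of the 4282 nuclear peaks in the shorter one. The peaks were chosen by chromosome alone, with no rule on width, spacing, clustering or score, though earlier results of these data were known. HTZ-1 is the worm form of the histone variant H2A.Z, and was recovered by chromatin immunoprecipitation for sequencing (ChIP-seq) with an affinity-purified rabbit polyclonal antibody, in 2 ChIP libraries beside 2 libraries of input DNA. All 4 libraries came from whole wild-type worms of N2, the usual laboratory strain, grown at 20 °C as a mixed population of males and hermaphrodites. No mutant or treated group was part of the design. Neither list says which libraries it was made from, so the shorter list served as a second call of the same regions and not as a replicate, and the spread between libraries is unknown here. Read depth is also unknown, and each interval given covers the counting of peaks only.

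H2A.Z takes the place of ordinary H2A in some nucleosomes, often those flanking the starts of active genes, and a peak marks a stretch where the antibody recovered more DNA than its surroundings. Hermaphrodites of C. elegans have a pair of X chromosomes and males a single one, and a dosage compensation complex lowers transcription from the hermaphrodite X. The X is also known for its low number of genes expressed in the germline, and HTZ-1 in embryos is known to be less frequent there than on autosomes. The worms were used whole, so sites occupied in fewer cells and sites with less HTZ-1 per cell cannot be told apart. The proportion of males was not given, and its part in any difference between the X and the autosomes was not tested.

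HTZ-1 peaks on the X stood mostly alone. In the longer list 274 of the 483 X peaks (56.7%, 95% Wilson interval 52.3 to 61.1%) had no other peak within 5 kb on either side, 126 formed pairs and 83 lay in clusters, defined as runs of at least 3 peaks with every gap under 5 kb. Single peaks made up 27.1% of all autosomal peaks of this list, and 21.3 to 37.5% on each autosome. The clustered share on the X was 17.2% (14.1 to 20.8%), beside 47.1% of all peaks of this list. The autosomes had 57.3% of their peaks in clusters on chromosome I, 52.6% on II, 52.0% on III, 50.6% on IV and 36.1% on V. The X lay below all 5. In the second call 338 X peaks (60.6%, 56.5 to 64.5%) were single and 72 (12.9%, 10.4 to 15.9%) lay in clusters, beside 21.7% of all peaks there. The autosomes ranged from 18.4% on II to 29.9% on I, so the X was again the lowest. Single peaks made up 47.3% of all autosomal peaks there, and II (52.0%) and V (51.4%) were also mostly single. Chromosome labels were compared by an exact permutation test, which sets 1 X chromosome against 5 autosomes and cannot give a p below 0.167 (two-sided). No difference between the X and the autosomes can therefore pass 0.05, and the order of chromosomes is given as a description. The clustered share gave p = 0.167 in the longer list and p = 0.333 in the shorter list by this exact permutation test.

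The gaps between neighbouring X peaks were long. The median gap in the longer list was 18470.5 bp on the X (order-statistic 95% interval 15270 to 23014 bp), and the quartiles were 4898.8 and 46474.2 bp. The autosomal medians were 4085 bp on I, 4848.5 bp on II, 4572 bp on III, 5390 bp on IV and 9104.5 bp on V, and over all autosomal gaps the median was 5174.5 bp, a ratio of 3.57. The shorter list gave an X median of 16735 bp (13938 to 19973 bp), against 8182 to 13327 bp on single autosomes and 9707 bp over all of them, a ratio of 1.72. The interval of the X overlapped that of V in the shorter list (10845 to 15833 bp) and not in the longer list (7541 to 11184 bp). Both medians on the X were above those of every autosome (exact permutation p = 0.167 in each list).

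Short gaps were few. In the longer list 124 of 482 X gaps were under 5 kb (25.7%, 22.0 to 29.8%), beside 47.2% of all gaps of this list, and 33 were under 1 kb (6.85%, 4.92 to 9.46%), against 17.5 to 25.7% on autosomes. In the shorter list 125 of 557 X gaps were under 5 kb (22.4%, 19.2 to 26.1%), beside 30.0% of all gaps. Gaps under 1 kb differed far less there, with 29 on the X (5.21%, 3.65 to 7.38%) against 6.64 to 8.21% on autosomes (exact permutation p = 0.167). Gaps over 50 kb made up 23.7% of X gaps in the longer list and 18.9% in the shorter list, and at most 13.5% and 14.1% on any autosome.

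**Figure D1:**
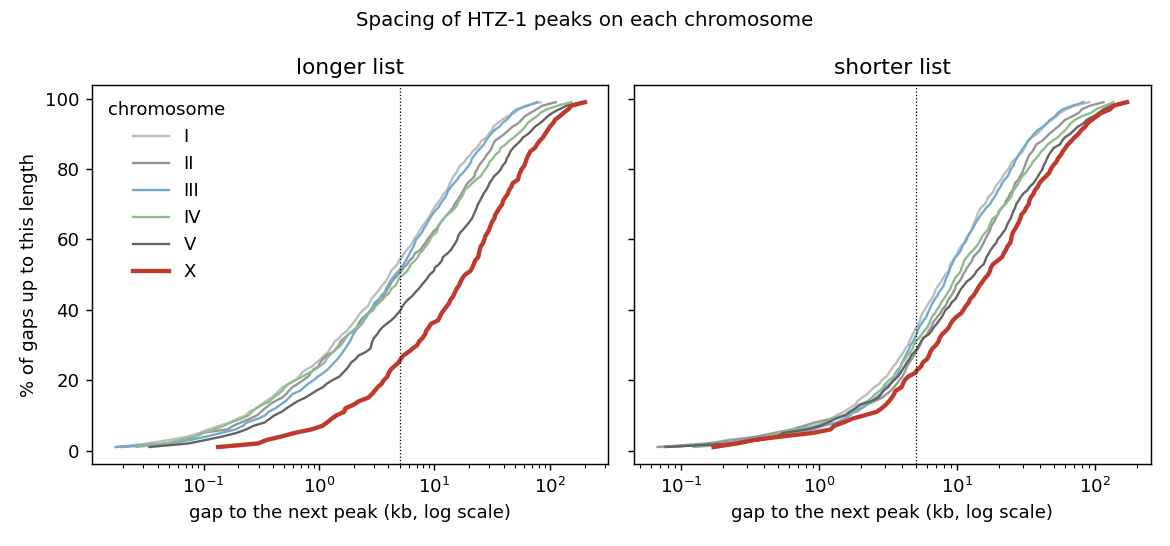
Share of gaps between neighbouring HTZ-1 peaks up to a given length (kb, log axis) on each chromosome, in the longer list (left) and the shorter list (right), with the X in red and a dotted line at 5 kb. At the dotted line the X curve reaches 25.7% and 22.4%, below every autosome in both lists.

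A sparse chromosome has long gaps whatever the arrangement of its peaks, and tends to have fewer clusters under a fixed 5 kb limit. The X was the sparsest by mean gap, at 34561.7 bp against 10751.1 to 23899.1 bp on autosomes in the longer list. In the shorter list it was 29621.9 bp against 14969.4 to 25779.8 bp. Each gap was therefore also set against the mean gap of its own chromosome. On this relative scale the lists gave different pictures. In the longer list 34.4% of X gaps (30.3 to 38.8%) were shorter than 25% of the X mean, below the 40.1 to 46.7% of the autosomes (exact permutation p = 0.167). The X value in the shorter list was 31.6% (27.9 to 35.6%), inside the autosomal range of 22.3 to 33.6% (exact permutation p = 0.667). The standard deviation of gaps divided by their mean, which is larger the more unevenly peaks are spread, was 1.28 on the X and 1.53 to 1.86 on autosomes in the longer list, and 1.23 and 1.13 to 1.48 in the shorter list. Among the longer-list peaks that the shorter list also held, the relative share was 31.6% on the X and 27.5 to 36.5% on autosomes. With longer-list peaks less than 1 kb apart merged it was 31.0% on the X, inside the 29.0 to 36.0% of the autosomes (exact permutation p = 1.0). The X thus lay below the autosomes on this scale in the unmerged longer list, and inside their range after merging, among the peaks common to both calls and in the shorter list.

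Most clusters on the X held 3 or 4 peaks. The longer list had 22, of which 12 held 3 peaks (54.5%, against 46.9 to 52.7% of the clusters on each autosome), 6 held 4, 3 held 5 and 1 held 8. The largest autosomal clusters of this list held from 7 peaks on V to 13 on III and IV, so the X maximum lay inside the autosomal range. The X clusters were 10.3 to 28.9 kb long, with a median of 15.2 kb. The shorter list had 21, with at most 5 peaks each, the same maximum as on I and IV, and 66.7% of them held 3 peaks, inside the autosomal range of 66.0 to 77.3%. Of the longer-list clusters 15 (68.2%) overlapped a cluster of the shorter list, and 15 (71.4%) of the shorter-list clusters overlapped one of the longer list.

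The largest X cluster lay at X:174293-203194 (WormBase WS220) near the left end of the chromosome, where 8 peaks covered 70.3% of 28.9 kb with gaps of 63 to 3291 bp. Its scores ran from 83.71 to 3100, and only 3 of its 8 peaks were met by the shorter list. The score is the authors' own value for a peak and has no stated scale, so it is used here to rank and describe. The next by size each held 5 peaks: X:11289303-11311339 (22.0 kb), X:4503617-4524212 (20.6 kb) and X:8545180-8564843 (19.7 kb). Of these the first had all 5 peaks met by the shorter list, and the others 4 of 5. The fifth, X:10371602-10392127, held 4 peaks over 20.5 kb, all met, with gaps of 3622 to 4928 bp that come close to the 5 kb limit.

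Long stretches of the X held no HTZ-1 peak. In the longer list 39 stretches exceeded 100 kb and together made up 5.8 Mb, which is 32.7% of the X span of 17.7 Mb. The autosomes had 7 such stretches on I, 14 on II, 4 on III, 21 on IV and 36 on V, or 5.99%, 11.7%, 4.21%, 20.2% and 27.0% of their spans. The shorter list left the X with 30 stretches (24.3% of the span), next to V with 37 (24.5%). The X was thus the emptiest chromosome in the longer list and level with V in the shorter list (exact permutation p = 0.167 and 0.5). The longest empty stretch of all was not on the X in either list: chromosome IV held one of 403623 bp in the longer list and 403558 bp in the shorter list.

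The 5 longest empty stretches of the longer list on the X were X:3804208-4189269 (385.1 kb), X:11975503-12237345 (261.8 kb), X:536940-787383 (250.4 kb), X:1500388-1721715 (221.3 kb) and X:12636032-12846680 (210.6 kb). The shorter list left the third and the fifth empty as well. It placed 1 peak, with a score of 307.0, in the longest, 2 low-scoring peaks (65.5 and 74.7) in the second, and 2 peaks in the fourth, 1 of them with a score of 3100. Of the 39 stretches, 21 held no complete peak of the shorter list and the other 18 held 23 peaks. With the lists joined, the X kept 28 stretches over 100 kb without a peak of either, 4.09 Mb or 23.1% of its span. The same joint measure was 21.4% on V, 16.5% on IV, 9.83% on II, 4.64% on I and 1.65% on III. The longest region of the X free of peaks in both calls was X:536940-787348, at 250.4 kb.

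**Figure D2:**
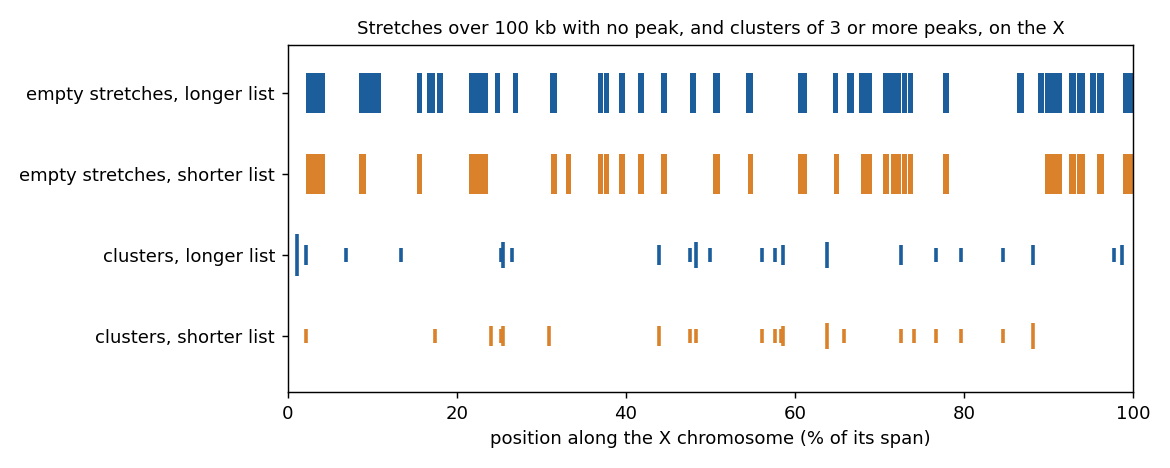
Empty stretches over 100 kb (bars) and clusters of 3 or more peaks (ticks, taller with more peaks) along the X, as a percent of its span, in the longer list (blue) and the shorter list (orange). The last 10% of the span holds the centres of 8 and 7 empty stretches, more than any other 10% segment in either list.

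By 10% segments of the X, HTZ-1 peaks were densest just left of the middle and sparsest at the right end. Each 10% of the span, 1.771 Mb long, held 33 to 70 longer-list peaks. The segment from 40 to 50% was the densest, with 39.5 peaks per Mb (exact Poisson 95% interval 30.8 to 49.9), and that from 90 to 100% was the sparsest, with 18.6 per Mb (12.8 to 26.2). The shorter list had the same segments as extremes, with 41.8 per Mb (32.8 to 52.4) and 23.7 per Mb (17.1 to 32.1). The intervals of these extremes did not overlap in either list, though they were picked as the extremes out of 10 and the intervals take peaks as independent. The other 8 segments ran from 23.1 to 32.7 per Mb in the longer list. In the shorter list they ran from 25.4 to 39.0 per Mb. The highest of these lay at 0 to 10% (24.9 to 42.3) in the longer list. In the shorter list it lay at 50 to 60% (30.3 to 49.3). Both intervals overlapped that of the densest segment. The left arm, taken as the span up to 33.3%, held 164 longer-list peaks (34.0%, 29.9 to 38.3%), the middle 183 (37.9%, 33.7 to 42.3%) and the right arm, from 66.7%, 136 (28.2%, 24.3 to 32.3%). The shorter list placed 187, 208 and 163 peaks there (33.5%, 37.3% and 29.2%). The middle share was below the autosomal range of 38.1 to 43.2% in the longer list and inside the range of 33.5 to 40.1% in the shorter list (exact permutation p = 0.167 and 1.0).

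Windows of 500 kb were cut from the left end, and the incomplete window at the right end of each chromosome was left out. Those of the X thus end at 17.5 Mb. In them the X held 3 to 26 longer-list peaks with a median of 14, and no window was empty. The fullest was the first, from the left end to 0.5 Mb, with 26 peaks covering 12.8% of the window, and the lowest was 1.5 to 2.0 Mb, with 3 peaks covering 1.5%. The shorter list gave these windows 22 and 10 peaks, and its own extremes lay elsewhere, with 24 peaks at 8.0 to 8.5 Mb and at 10.0 to 10.5 Mb and 8 at 12.5 to 13.0 Mb and at 16.0 to 16.5 Mb. Over the 35 windows the variance of the counts divided by their mean was 1.75 on the X and 2.39 to 4.16 on autosomes in the longer list, and 1.19 and 1.09 to 2.61 in the shorter list. This ratio, which also depends on the number of peaks, was below all autosomes in the longer list and within their range in the shorter list (exact permutation p = 0.167 and 0.5). The standard deviation of the counts divided by their mean, added after the data were seen, put the X inside the autosomal range in both lists, at 0.358 against 0.259 to 0.419 in the longer list and 0.274 against 0.197 to 0.359 in the shorter list (exact permutation p = 1.0 and 0.833). The shorter list had the higher count in 30 of the 35 windows, the longer list in 2, and the counts were equal in 3. Its excess on the X was therefore spread over the chromosome.

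**Figure D3:**
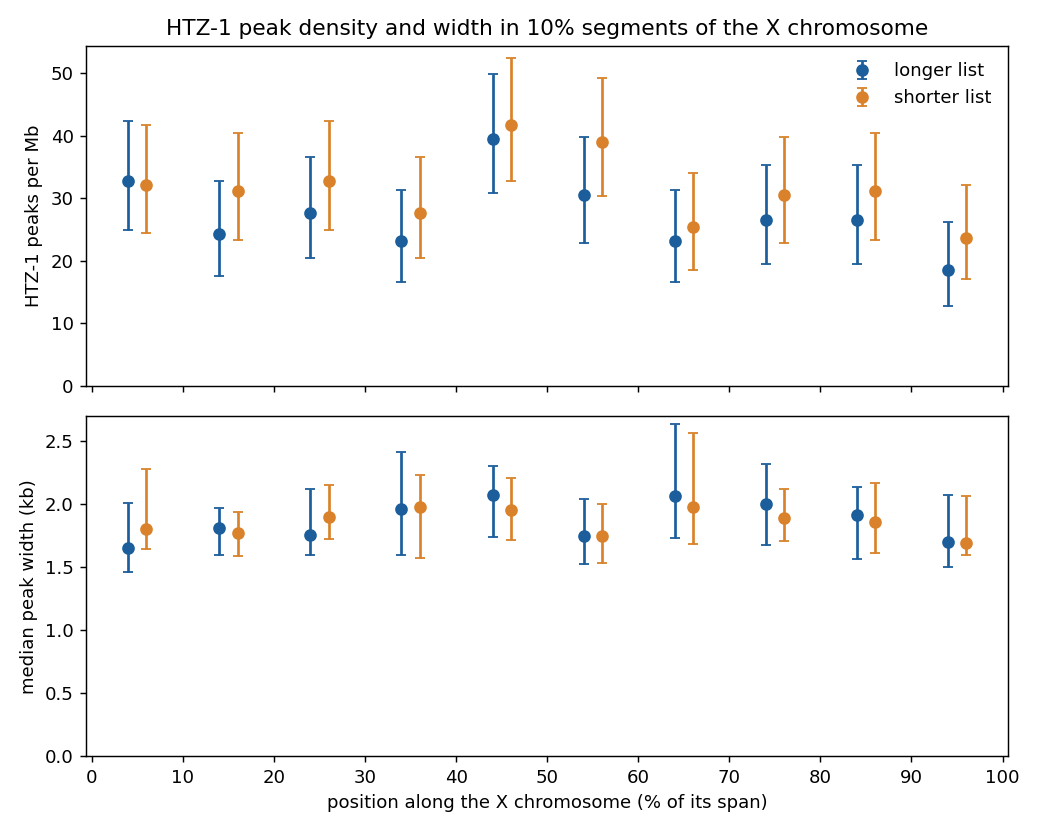
Peaks per Mb with exact Poisson 95% intervals (top) and median peak width in kb with order-statistic 95% intervals (bottom) in each 10% segment of the X, for the longer list (blue) and the shorter list (orange). Density is highest from 40 to 50% of the span, at 39.5 and 41.8 per Mb, and lowest from 90 to 100%, at 18.6 and 23.7 per Mb, while median widths stay between 1651 and 2072 bp.

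X peaks were narrow throughout the chromosome. Their median width was 1856 bp in the longer list (order-statistic 95% interval 1749 to 1966 bp), the narrowest 1020 bp and the widest 8193 bp. Autosomal medians were 2168 to 2472 bp. The shorter list gave 1843 bp on the X and 2180 to 2482 bp on autosomes. In the longer list the autosomal medians were 2363.5 to 2842 bp in the middle and 2005 to 2362 bp in the arms. The interval of the X middle (1956 bp, 1764 to 2079 bp) overlapped those of most autosomal arms. These were the left and right arms of I and V and the left arms of II, III and IV. The lowest of them was the right arm of V (2005 bp, 1899 to 2173 bp). It did not overlap the right arms of II, III and IV or the middle of any autosome. Median widths by segment ran from 1651 to 2072 bp (longer list) and from 1692.5 to 1978 bp (shorter list), with overlapping intervals. Peaks under 1.5 kb made up 27.5% of X peaks (23.7 to 31.7%) and 16.2 to 20.5% of peaks on the autosomes. The shorter list gave 26.2% on the X and 15.0 to 19.9% on autosomes.

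Isolated peaks were also narrowest on the X, by a smaller margin in the longer list. Among longer-list peaks with more than 10 kb free on both sides the X median was 1830 bp (1699 to 1956 bp), and the autosomal medians were 1963.5 bp on I, 2010.5 bp on III, 2041 bp on IV, 2090.5 bp on V and 2153 bp on II. The X median minus the mean of the autosomal medians was -221.7 bp there, against -492.9 bp among all peaks, and the X interval overlapped those of I, II, III and IV but not that of V (1978 to 2283 bp). Such isolated peaks of the shorter list had a median of 1783 bp on the X (1695 to 1971 bp) and 2050 to 2408 bp on autosomes, where only the interval of IV (1892 to 2224 bp) overlapped that of the X. Clustered X peaks of the longer list had a median of 2105 bp (1730 to 2395 bp) and single ones 1831 bp (1722 to 1941 bp), with overlapping intervals. On the autosomes the clustered medians were 2219 to 2656 bp and the single ones 1999 to 2185 bp.

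Broad regions on the X numbered 17 over 5 kb in each list, 3.52% and 3.05% of the X peaks with a width, beside 14.3% and 11.7% of all peaks. None exceeded 10 kb. Of the 17 in the longer list, 6 lay in clusters, beside 83 of all 483 X peaks. The shorter list met 16 of the 17 (94.1%, 73.0 to 99.0%), close to the 94.0% of all X peaks. On the autosomes it met 71.5% of peaks of 5 to 10 kb. The widest was X:11524801-11532993 (8.19 kb, score 3100), which had no counterpart in the shorter list. It was followed by X:8103494-8111077 (7.58 kb, score 1335), met by 2 shorter-list peaks, X:10990032-10997612 (7.58 kb, score 3100), X:13583224-13590595 (7.37 kb, score 339.3) and X:7144659-7151876 (7.22 kb, score 1691). The last 3 had counterparts of 7.57, 7.39 and 7.19 kb with scores of 247.9, 109.95 and 293.5. Their edges were thus placed nearly alike while their scores stood far apart.

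Few X peaks of the longer list scored 3100 or more. There 10 X peaks (2.07%, 1.13 to 3.77%) had exactly 3100, a value shared by 559 autosomal peaks (12.5%, 11.6 to 13.5%), and no X peak scored above it. The shorter list did not show this, with 14 X peaks at 3100 (2.51%, 1.5 to 4.17%) and 67 autosomal peaks (1.8%, 1.42 to 2.28%). The 10 of the longer list were 3.38 to 8.19 kb wide. The 5 widest among them, which rank first by the tie rule, were X:11524801-11532993, X:10990032-10997612, X:4511345-4517931 (6.59 kb), X:42863-49086 (6.22 kb) and X:182389-188476 (6.09 kb), the last inside the cluster of 8. Their counterparts in the shorter list, where present, scored 247.9, 524.1, 467.7 and 560.8. Over the 9 X peaks at 3100 that were met, the counterpart scored from 247.9 to 3100, with a median of 560.8.

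The second call found most X regions with the same edges. Of the 483 longer-list X peaks 454 (94.0%, 91.5 to 95.8%) overlapped a shorter-list peak by at least 1 bp, beside 76.2% of all peaks of the list, and of the 558 shorter-list X peaks 454 (81.4%, 77.9 to 84.4%) overlapped a longer-list peak, beside 86.1% of all. One-to-one pairs numbered 448 on the X. Their starts differed by a median of 16 bp and their ends by 16 bp, and both edges lay within 100 bp of each other in 376 pairs (83.9%, 80.2 to 87.0%), against 75.9 to 79.3% on the autosomes (exact permutation p = 0.167). Across these X pairs Spearman's rho of the widths was 0.953 and that of the scores 0.797. The libraries behind each list are not stated, so the correlations are given as a description.

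Scores of the X pairs stood in the opposite order to those of the autosomal pairs. The shorter list gave the higher score in 311 of the 448 X pairs (69.4%), against 33.2 to 43.0% of pairs on single autosomes (exact permutation p = 0.167). The median scores of the X pairs were 345.7 in the longer list and 426.1 in the shorter list. They were 557.2 and 405.6 on V, the autosome with the highest such share (43.0%). On III, with the lowest (33.2%), they were 895.1 and 455.2. On the X the direction differed with width. Among the 250 X pairs under 2 kb the shorter list had the higher score in 203 (81.2%), with medians of 217.6 and 281.9. Among the 14 X pairs over 5 kb it had the lower score in 11, with medians of 1939.1 in the longer list and 441.6 in the shorter list. Scores of wide autosomal peaks, paired or not, also differed between the lists. At 5000 to 10000 bp their medians were 3100 in the longer list and 447.9 in the shorter list. At 1000 to 1500 bp they were 107.8 and 108.8. Peaks over 5 kb were 3.52% of longer-list peaks on the X and 12.5 to 16.7% on autosomes. Pairs of matched width were not compared, so the part of width in the contrast between X and autosomal pairs was not tested. With no stated scale no change in HTZ-1 is read from these values.

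**Figure D4:**
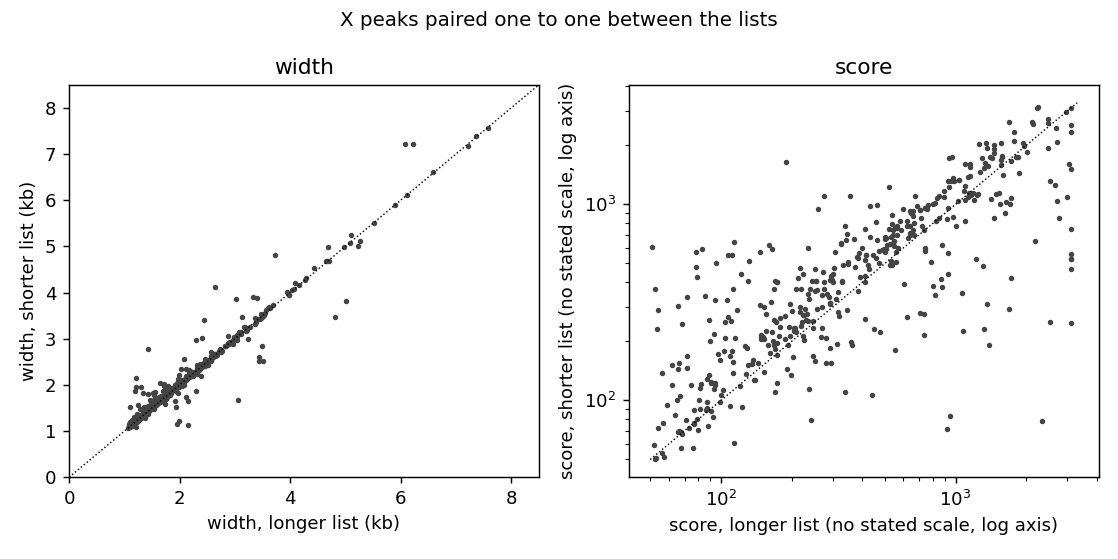
Width in kb (left) and score (right, log axes, no stated scale) of the 448 X peaks paired one to one between the lists, with the longer list on the horizontal axis, the shorter list on the vertical axis and a dotted line of equality. Widths hug the line (rho 0.953), while 311 of the 448 scores lie above it.

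The X peaks found in a single list were mostly narrow and low-scoring in both lists, and differed in clustering and in distance to the other list. The 29 of the longer list had a median width of 1408 bp (1157 to 1675 bp) and a median score of 84.83. Of these, 24 (82.8%) were within 5 kb of a shorter-list peak, beside 75.8% of the 1148 autosomal peaks found in the longer list alone. In clusters were 12 (41.4%), beside 73.1% of those autosomal peaks. Of the 29, 10 lay in the first 10% of the chromosome, 5 of these in the cluster of 8. That segment held 58 of all 483 X peaks of the list. The highest scores among them belonged to X:11524801-11532993 (3100), its neighbour X:11521089-11524433 (711.9), which lies 367 bp to its left, and X:13999711-14002005 (312.0). The 104 of the shorter list had a median width of 1542 bp (1405 to 1699 bp) and a median score of 109.4. They lay a median of 10.4 kb from the nearest longer-list peak, and 8 (7.69%) were in clusters. The 492 autosomal peaks found in the shorter list alone lay a median of 6.51 kb away, with 19.9% in clusters. Their median width (1580 bp) and median score (104.0) were close to those on the X. Of the 104 X peaks, 23 (22.1%, 15.2 to 31.0%) fell inside the empty stretches that made up 32.7% of the X in the longer list.

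The top of the shorter list on the X was mostly absent from the longer list. Of its 14 X peaks with exactly 3100, 13 had no longer-list peak (92.9%, 68.5 to 98.7%), against 35 of 67 on the autosomes (52.2%, 40.5 to 63.7%). The intervals did not overlap, and they rest on 14 peaks on the X. These 13 peaks, singled out after their values were seen, were 1.9 to 6.29 kb wide and lay 3.31 to 82.8 kb from the nearest longer-list peak. They were spread over the chromosome, with 5 in the left arm, 3 in the middle and 5 in the right arm, and none was in a cluster. The widest 3 were X:289445-295735 (6.29 kb), X:108706-114735 (6.03 kb) and X:15806919-15811651 (4.73 kb). The only X peak above 3100, X:228992-231025 with a score of 3154, matched a longer-list peak at the same start with a score of 2238.

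**Figure D5:**
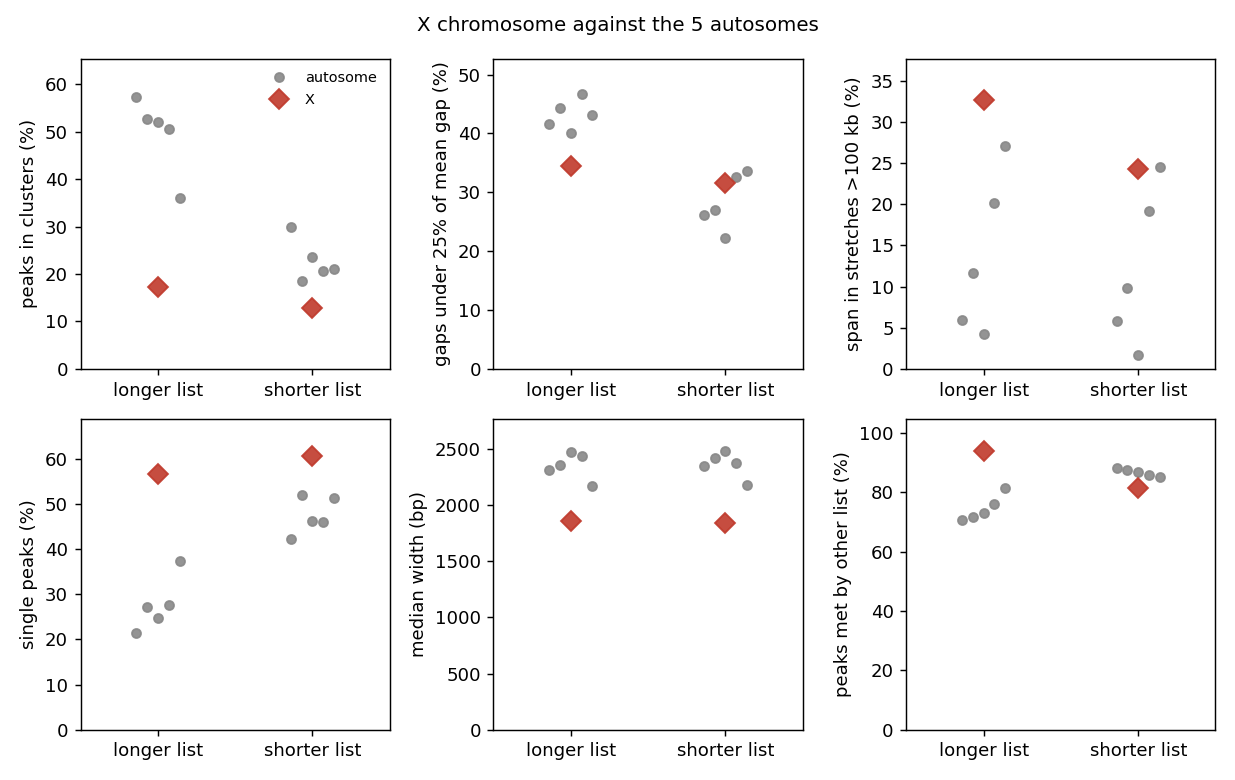
Values of 6 measures on the X (red diamonds) and on each of the 5 autosomes (grey dots, I to V from left to right) in the larger and the shorter list, each axis starting at 0. The X lies below all autosomes in clustered peaks (17.2% and 12.9%) and median width (1856 and 1843 bp) in both lists, and changes sides in the share of peaks met by the other list (94.0% and 81.4%).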

How the data were processed

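ChIP-seq of HTZ-1 and input DNA were made from whole worms ground after freezing and fixed for 10 minutes in 1% formaldehyde, per the labels' protocols. The submitters' processing notes name BWA. The authors deposited 2 peak lists on WormBase WS220, per the file headers, with a start, an end and a score for each peak. The scale of the deposited score is not given, nor are the settings of the caller or any pooling of libraries. The source field and the peak names point to different callers. Comment lines name 2 X peaks in each list whose structure changed in a coordinate liftover. An uneven lift or caller setting could shift edges and split or join peaks, and so change widths, gaps and clusters.

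From these files, gaps, clusters, empty stretches and overlaps were computed with Python 3.11.15, NumPy 2.4.6, pandas 2.3.3 and SciPy 1.17.1, and plotted with matplotlib 3.10.9. The code was tested on simulated regions. A gap is the number of bases between neighbouring peaks, and an empty stretch is a gap over 100 kb, chromosome ends included. The span of a chromosome was base 1 up to its final peak end in either list. The 1 X peak of the shorter list without a start was given position 1 and left out of widths. Shares have 95% Wilson intervals and medians order-statistic intervals, and both treat peaks as independent although they share libraries. Chromosomes were compared by exact permutation of the 6 labels. No test over libraries was possible, and ChIP was not compared with input. Alternatives were the 50% of peaks with the higher scores, merging within 1 kb, the shorter list, and other limits for gaps, stretches, middle parts and overlaps. Named sites follow a rule on rank by score, width, cluster size or stretch length, and exceptions are stated. The X peaks, measures and rules were chosen with earlier results of these data known. No genome or annotation of WS220 was used here, so no gene or sequence is given.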

Additional observations from a re-analysis of the deposited data

How the results depend on the processing

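No paired analysis was possible because the peak lists hold no values per library. Of 43 alternatives, 33 left the X outside the autosomal range on the same side as in the longer list with all peaks, and 4 reversed the difference from the autosomal mean. The 33 include merging within 1 kb for empty stretches, which cannot alter stretches over 100 kb and so repeated the main value of 32.7%. For the reversals and shifts below the cause was not tested, apart from limits that change a value by construction. In the shorter list the X share was 31.6% for gaps under 25% of the mean gap, 37.3% for the middle part and 81.4% for peaks met by the other list, all reversed, and 12.9% for clusters and 24.3% for empty stretches. Among peaks that overlap the other list, an alternative added after the data were seen, the middle share reversed at 38.8%, gaps under 5 kb made up 20.5%, clusters 13.2% and empty stretches 34.1%. Among the higher-scoring 50% of peaks the X values were 12.6% of gaps under 5 kb, a median gap of 57731 bp, 26.4% of gaps under 25% of the mean, 5.46% in clusters, 71.0% of the span empty, a median width of 2368 bp and 98.9% met. This score limit was set over all chromosomes, and X scores were lower, with a median of 314.3 against 561.0 over autosomal peaks. It therefore kept a smaller share of X peaks than of autosomal peaks, which by itself makes the X sparser. Merging peaks within 1 kb gave 20.3% of gaps under 5 kb, 31.0% of gaps under 25% of the mean (inside the autosomal range), 14.0% in clusters and 96.7% met. Gap limits of 2 and 10 kb gave 13.1% and 36.7% of gaps and 3.31% and 30.8% of peaks in clusters, at least 5 peaks per cluster gave 4.76%, and 10% of the mean gap gave 18.9%. Stretches over 50 and over 150 kb made up 62.6% and 14.1%, the latter inside the autosomal range of 2.39 to 15.1%. A middle part of 50% of the span held 53.4% of X peaks. The X stayed below every autosome in gaps under 5 kb, clusters and median width, and above every autosome in median gap, under every alternative run for those measures. The gap and cluster measures also depend on how sparse the peaks of a chromosome are, for which these alternatives did not adjust. The number of peaks limits these intervals, and read depth per library is unknown.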
